A study of Drosophila melanogaster with 2 samples.

Results

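The genes of the proteasome subunits were chosen by name: 48 of the 13945 protein-coding genes on X, 2L, 2R, 3L, 3R and 4 have a symbol that starts with Prosalpha, Prosbeta, Rpn or Rpt followed by a digit. They comprise 32 genes of the standard 26S particle and 16 paralogs, whose symbols carry R or T after the subunit number. The standard genes are 7 alpha and 7 beta subunits of the 20S core, 10 subunits of the base of the 19S cap and 8 of its lid. Chromatin came from whole Drosophila melanogaster pupae aged 1 day, of the strain CG12605-GFP, and was precipitated with an antibody against GFP. Both libraries are biological replicates of this single group, and the labels name the same donor strain for both. The bait is a fusion to eGFP of CG12605, which encodes a relative of the zinc finger factors Scratch and Snail. The flies are transgenic, and the labels do not state the promoter that drives the fusion. No other genotype or condition is analysed here, so comparisons are between gene sets and between the replicates. Whole pupae hold every cell type, and strong occupancy in few cells cannot be told apart from weak occupancy in many.

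The proteasome degrades proteins that carry chains of ubiquitin. Its 20S core is a barrel in which rings of alpha subunits form the gate and rings of beta subunits hold the proteolytic sites. The 19S cap has a base of Rpt ATPases, which unfold the substrate and thread it into the core, with the large scaffolds Rpn1 and Rpn2 and ubiquitin receptors such as Rpn10 and Rpn13. The lid of the cap includes Rpn11, which removes ubiquitin from the substrate. In Drosophila several subunits have a second gene that is expressed in the male germline. Every cell needs the standard particle, and insects remodel larval tissue in the pupa with heavy protein turnover.

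A peak summit near a start site was uncommon at these genes. In the authors' conservative list of 6776 peaks, 4 of the 48 genes (8.33%) had a summit within 1000 bp of an annotated start site, against 23.1% of all protein-coding genes. The 4 were Prosbeta5, Rpn13, Rpn3 and Rpn8, all genes of the standard particle. Among the 16 paralogs 0 had such a summit, so the count over the standard genes alone was 4 of 32. The series-level thresholded list held 3 of the 48 (6.25%, against 23.6% of all genes), the same genes without Rpn8. The thresholded list of replicate 1 held 2 (4.17%, against 15.8%), and that of replicate 2 held 3 (6.25%, against 19.3%). The share of proteasome genes was below that of all genes in each of these lists. The read depth of the libraries is unknown, and no test was made because the genes were chosen with results of these data known.

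**Figure D1:**
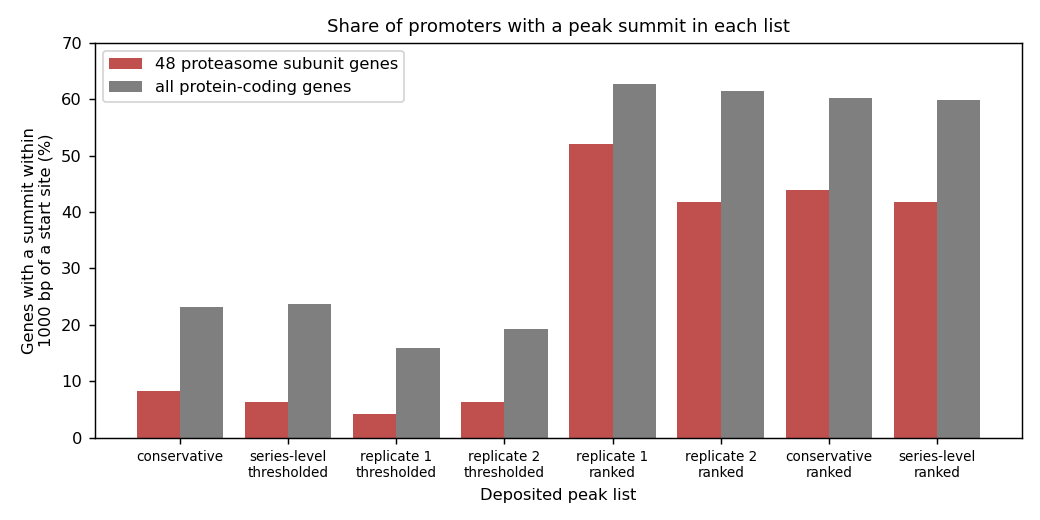
Percent of genes with a peak summit within 1000 bp of a start site (y axis) in each of the 8 deposited peak lists (x axis). Red bars are the 48 proteasome subunit genes and grey bars all 13945 protein-coding genes; the red bar is the lower in each list, at 8.33% against 23.1% in the conservative list. The red bars include the 16 paralogs. The 32 standard genes alone, not drawn, stand at 68.8% in the ranked list of replicate 1, above the 62.7% of all genes.

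Rpn3, a structural subunit of the lid, had the highest signal of the set in the conservative list, 102, above that of 62.7% of the peaks. The signal is the authors' own value for the height of a peak. On the dm6 assembly, used for all coordinates here, its summit lay on 2L at 19051800, in the 5′ UTR and 10 bp downstream of the first start of the gene (FBgn0261396, plus strand, 19051790 to 19053681). Replicate 1 gave 31.7 with a summit 4 bp upstream, and replicate 2 gave 69.0 with a summit 10 bp downstream. The irreproducible discovery rate (IDR) measures how poorly a peak's rank repeats between paired peak calls, and the authors' thresholded lists stop at 0.01. With an IDR of 0.015 in replicate 1 and 0.000135 in replicate 2, only replicate 2 had this peak in its thresholded list. The neighbour l(2)37Bb (FBgn0002021, minus strand) starts 188 bp from the summit. The sequence between both starts is shown because most of it is a direct repeat. An exact run of 82 bases occurs in 2 copies whose first bases lie 78 bp apart, at 187 and 109 bp before the start of Rpn3, and capitals mark the second copy. The first copy begins a little before the stretch printed, and the copies overlap slightly. Exact repeats of at least 60 bases were found in 8 of 13945 promoters of 300 bp (0.0574%). Whether reads could be placed on a single copy was not tested.
Rpn3 upstream sequence, chr2L:19051613-19051789, plus strand: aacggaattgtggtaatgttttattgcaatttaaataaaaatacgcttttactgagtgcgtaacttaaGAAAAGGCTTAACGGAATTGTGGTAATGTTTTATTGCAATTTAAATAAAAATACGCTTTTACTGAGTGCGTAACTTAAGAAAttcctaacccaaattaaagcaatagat

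Prosbeta5, which encodes the core subunit with the chymotrypsin-like site, was the only gene of the set in the conservative list and in the thresholded lists of both replicates. Its summit in the conservative list lay on 2R at 10819908, 70 bp upstream of the start of the gene (FBgn0029134, plus strand, 10819978 to 10821178). The signal of the peak was 89.4 in the conservative list. Replicate 1 gave 42.8 with a summit 78 bp upstream, and replicate 2 gave 54.4 with a summit 52 bp upstream. The conservative signal exceeded that of 53.5% of the 6776 peaks and of 43.8% of the genes that have a conservative summit within 1000 bp, so the peak was of middle height. The same summit lay 24 bp from the start of dgo (FBgn0086898, minus strand), the planar polarity gene diego, and so nearer to dgo than to Prosbeta5.

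Rpn13, a ubiquitin receptor of the base, had a conservative summit on 2R at 13960473, 69 bp upstream of its outermost start (FBgn0033886, minus strand, 13958545 to 13960404). The signal was 94.4 in the conservative list. Replicate 1 gave 54.0 at a summit 75 bp upstream, with an IDR of 0.000952. Replicate 2 gave 38.3 at a summit 190 bp upstream with an IDR of 0.0148, just past that limit. The Rpn13 promoter was therefore in the thresholded list of replicate 1 and not in that of replicate 2, the reverse of Rpn3. CtsL1 (FBgn0013770, plus strand), the gene of the lysosomal protease cathepsin L, starts 202 bp from the conservative summit. The summit of replicate 2 lay nearer to the start of CtsL1 than to that of Rpn13. A second peak, of signal 70.6, was in both ranked lists built on both replicates. Its summit at 13960673 lay 269 bp upstream of Rpn13 and nearer to the start of CtsL1. The IDR of this second peak was 0.505 in the list behind the conservative peaks and 0.0127 in the series-level list, so neither thresholded list holds it.

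Rpn8, the lid partner of Rpn11, was called on a weak peak. Its conservative summit lay on 2R at 24402173 in an intron of the gene (FBgn0002787, plus strand, 24400028 to 24404527), 832 bp upstream of its inner start at 24403005. The signal was 10.3, which ranked 6736 of 6776 conservative peaks, and the IDR was 0.00908. A second conservative peak, of signal 51.0, lay with its summit 200 bp away, 1032 bp upstream of the same start, and overlapped the weaker peak by 160 bp. In the ranked lists the nearest summits to the weaker peak lay 188 bp away in replicate 1 and 149 bp away in replicate 2. The replicates' strongest ranked peaks within 1000 bp of a Rpn8 start had signals of 24.5 and 25.6, with an IDR of 0.405 in replicate 1 and 0.302 in replicate 2. Neither is in a thresholded list. The start of Slik (FBgn0035001, minus strand), which encodes a Ste20-like kinase, was the nearest to the conservative summit, at 211 bp. That summit also lies in the 5′ UTR of Slik. Rpn8 at 832 bp was the last gene inside the limit of 1000 bp, and Prosbeta6 at 1087 bp the first outside it.

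All 4 genes with a conservative summit have a divergent or overlapping neighbour whose start lies within 1000 bp of the summit. Of the 48 genes, 26 have the start of another protein-coding gene within 1000 bp of their own, and 4 of these 26 had a conservative summit (15.4%, against 30.1% of all such genes). The other 22 genes had 0, against 17.8% of all genes with no start so near. The genes were also split by their number of start positions. Among the 36 proteasome genes with 1 start position, 1 had a summit (2.78%, against 16.4% of all genes with 1 start position). Among the 12 with more, 3 had a summit (25.0%, against 41.7%). The share of genes with 1 start position was 75.0% in the set and 73.5% over all genes. The shares of the set lay below those of all genes within each of these 4 classes. The counts are small, and with 12 genes a count of 3 is near the share of 41.7%. The classes also pool standard genes with the 16 paralogs, of which 0 had a summit. These differences were not tested.

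Prosalpha6T, the testis counterpart of the alpha subunit gene Prosalpha6, was the only paralog in a thresholded list, and only in that of replicate 2. The summit lay on 2L at 13231404 in intergenic sequence, 635 bp upstream of the gene (FBgn0032492, plus strand, 13232039 to 13233058). Its signal was 43.9, above that of 29.3% of the peaks in that list, with an IDR of 0.00231. No ranked summit of replicate 1, and none of the lists built on both replicates, lay within 1000 bp of the start. No other protein-coding gene starts within 1000 bp of this summit. The 101 bp around it are shown because of their composition: A makes up 56.4% of the strand of the gene, and capitals mark 4 runs of at least 6 A, the longest of 11. Prosalpha6 itself had no summit within 1000 bp in any of the 8 lists.
Prosalpha6T summit window, chr2L:13231354-13231454, plus strand: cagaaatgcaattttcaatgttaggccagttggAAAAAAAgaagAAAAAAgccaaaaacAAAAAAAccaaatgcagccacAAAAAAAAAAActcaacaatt

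The ranked lists, which also hold peaks that do not meet the IDR limit, extend the description to weak signal. Replicate 1 had a ranked summit within 1000 bp of 25 of the 48 genes (52.1%, against 62.7% of all genes), and replicate 2 of 20 (41.7%, against 61.4%). The ranked list behind the conservative peaks had 21 (43.8%, against 60.2%) and the series-level ranked list 20 (41.7%, against 59.8%). In both replicates' ranked lists together there were 17 of the 48, against 51.1% of all genes. No summit was present in any of the 8 lists at 17 of the 48, against 24.7% of all genes, and 10 of these 17 are paralogs. These shares pool standard genes and paralogs. The 32 standard genes alone had a ranked summit at 22 in replicate 1 (68.8%), above the 62.7% of all genes. In replicate 2 they had one at 17 (53.1%), below the 61.4%. In either replicate it was 24 of the 32, against 73.0% of all genes, and 7 of the 32 had no summit in any list.

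Within 500 bp of a start the ranked list of replicate 1 had 16 of the 48 genes (against 51.2% of all genes). Most peaks at these genes were low. In replicate 1 the strongest peak at each of the 25 genes ran from 7.87 to 54.0 with a median of 10.8, against a median of 20.7 over the 8741 genes with a ranked summit. In replicate 2 the 20 genes ran from 10.3 to 69.0 with a median of 17.1, against 25.3 over 8562 genes. In replicate 1, 21 of the 25 lay below the median over all genes with a summit, and in replicate 2, 15 of the 20. Of the 25 peaks in replicate 1, 2 were at or under an IDR of 0.01 and 12 stood at the highest IDR of that list, 0.75. Of the 20 in replicate 2, 3 were at or under 0.01 and 16 were over 0.1. Of the 8741 genes with a ranked summit in replicate 1, 2201 had a summit in its thresholded list. In replicate 2 it was 2694 of the 8562. For the higher IDR values no share over all genes was counted, so those counts only describe the set.

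The 5 highest members in replicate 1 were Rpn13 at 54.0, Prosbeta5 at 42.8, Rpn3 at 31.7, Rpn8 at 24.5 and Rpt3, a base ATPase gene, at 19.7. In replicate 2 they were Rpn3 at 69.0, Prosbeta5 at 54.4, Prosalpha6T at 43.9, Rpn13 at 38.3 and Rpn8 at 25.6. Prosbeta5, Rpn13, Rpn3 and Rpn8 are thus among the highest in both replicates, in a different order. At Rpn8 these are different peaks, 389 bp upstream of the inner start in replicate 1 and 981 bp upstream of it in replicate 2. Rpt3 had 19.7 in replicate 1 at a summit 972 bp downstream of a start, with an IDR of 0.282. Its strongest peak in replicate 2, of 23.7 with an IDR of 0.124, lay upstream of a start and is a different peak. The ranked peak of 41.5 behind the conservative list also lay upstream, at 478 bp, with an IDR of 0.0584. Of the 17 genes with a ranked summit in both replicates, 10 had a ranked summit of replicate 1 within 100 bp of a ranked summit of replicate 2 (58.8%). Over the genome it was 77.0% of the 7128 such genes. Any ranked summit counted here, not only the strongest. Rpn13, Rpn8 and Rpt3 are among the 10, although their strongest peaks in the replicates lay more than 100 bp apart.

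**Figure D2:**
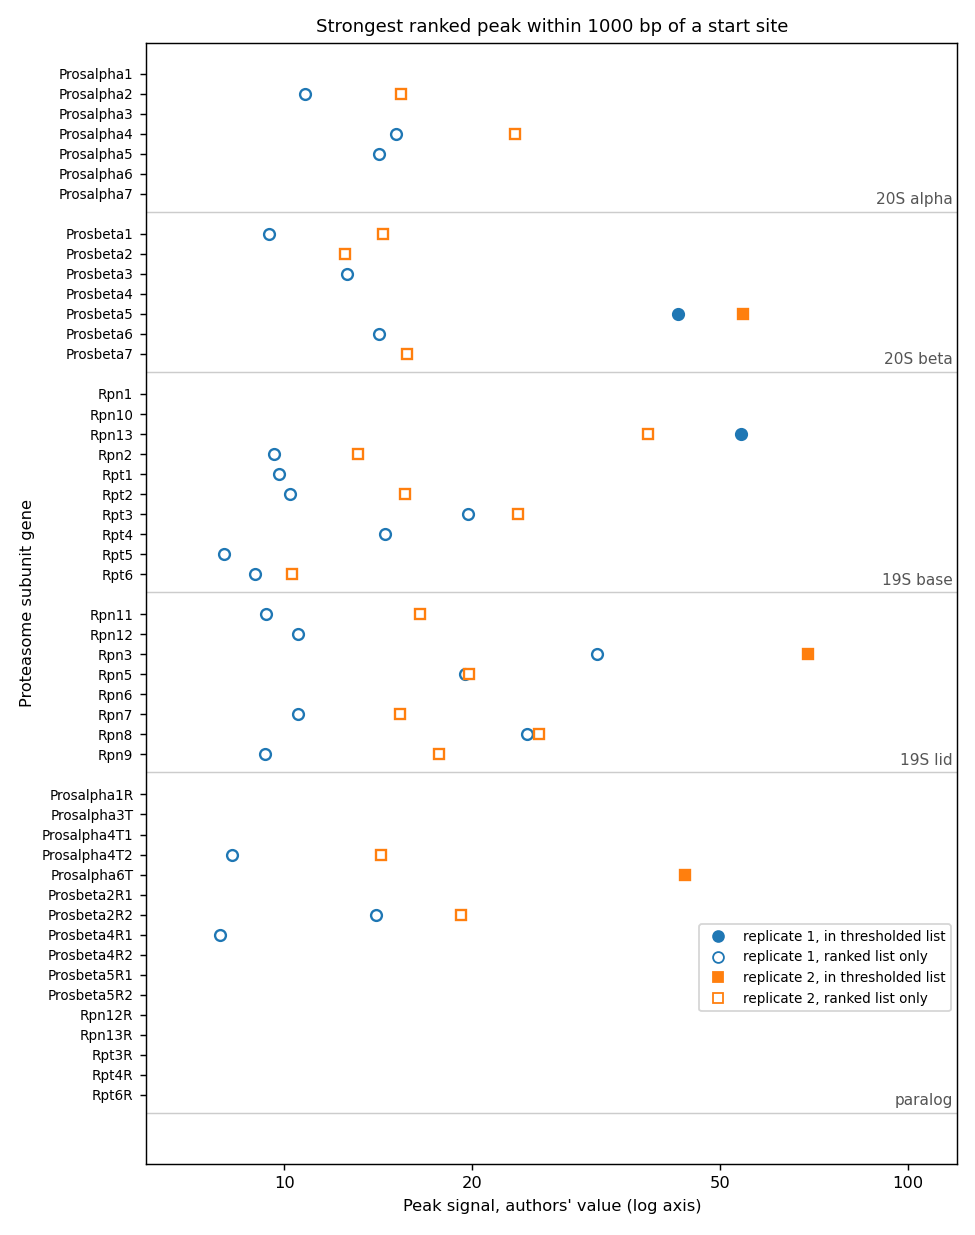
Signal of the strongest ranked peak within 1000 bp of a start site (x axis, authors' value, log scale) for each of the 48 genes (y axis), grouped by part of the particle. Blue circles are replicate 1 and orange squares replicate 2, filled where the gene is in that replicate's thresholded list; Prosbeta5 is filled in both, Rpn13 in replicate 1, and Rpn3 and Prosalpha6T in replicate 2, and a row with no symbol has no ranked summit in either replicate.

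Counts of weak peaks varied between the parts of the particle. A ranked summit lay at 7 of 8 lid genes in replicate 1 and 6 of 8 in replicate 2, and at 8 of 10 and 5 of 10 base genes. Among the beta subunits it lay at 4 of 7 in each replicate, and among the alpha subunits at 3 of 7 in replicate 1 and 2 of 7 in replicate 2. Paralogs had one at 3 of 16 in each replicate (18.8%). Over all genes the shares were 62.7% and 61.4%. The lid and base genes were above these shares in replicate 1, and in replicate 2 the lid was above and the base below. Differences between parts rest on 7 to 16 genes each and were not tested. Of the alpha genes, 0 of 7 were in a thresholded list, which with 7 genes is near the shares of all genes in those lists, 15.8% to 23.6%.

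The median distance from a start site to the nearest conservative summit was 6700 bp for the 48 genes and 6464 bp for all genes, with quartiles of 3170 and 15180 bp for the set and 1324 and 16797 bp for all genes. It was 5038 bp for the standard genes and 18812 bp for the paralogs. Beyond 1000 and up to 2000 bp there were 4 genes (8.33%, against 5.59% of all genes). At Prosbeta6, a core subunit gene, the summit had a signal of 108 and lay 16 bp from the start of CG4098. At Prosalpha3 it had a signal of 149, 1823 bp away and 82 bp from the start of CG10543. At the scaffold gene Rpn2 it had a signal of 13.2, 1390 bp away and 340 bp from the start of eIF2D. At the lid gene Rpn9 (FBgn0028691, minus strand) it had a signal of 59.9 at 23734933 on 3R, 1471 bp upstream, and no other protein-coding start was nearer. Replicate 2 had this peak in its thresholded list, at 37.5, and replicate 1 did not. Within 2000 bp of a start site the conservative list thus held 8 of the 48 genes (against 28.7% of all genes), the thresholded list of replicate 1 held 5 (against 20.4%) and that of replicate 2 held 8 (against 24.5%). Counting each summit only for its nearest start left 2 of the 48 in the conservative list, Rpn3 and Rpn13 (against 18.1% of all genes). Inside the transcribed genes, 2 of the 48 held a conservative summit, Rpn3 and Rpn8, against 15.7% of all genes. The median gene length was 1381 bp in the set and 2166 bp over all genes.

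**Figure D3:**
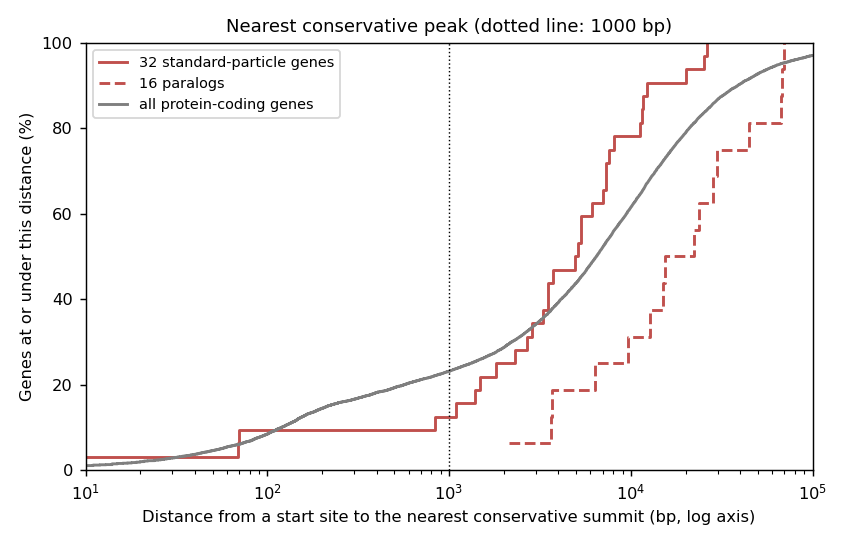
Distance from a start site to the nearest conservative summit (x axis, bp, log scale) and the percent of genes at or under it (y axis). The solid red line is the 32 standard genes, the broken red line the 16 paralogs and the grey line all protein-coding genes; at the dotted line of 1000 bp the standard genes lie below all genes and the paralogs are at 0, while their medians are 5038 bp for the standard genes, 18812 bp for the paralogs and 6464 bp for all genes.

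Promoters were read from 250 bp before to 50 bp after the outermost start of every gene, and 8 motifs were searched on both strands. TATCGATA, the DRE, which is the site of the replication-related factor DREF, occurred in 12 of the 48 promoters (25.0%), against 9.36% of all promoters. All 12 belong to the 32 standard genes. With 16 paralogs and the share of 9.36%, a count of 0 is near the background, and the difference between standard genes and paralogs was not tested. The 12 are Prosalpha3, Prosalpha5, Prosalpha6, Prosbeta1, Prosbeta2, Prosbeta6, Rpt5, Rpn3, Rpn7, Rpn9, Rpn12 and Rpn13. Of the genes of the set with a conservative summit, Rpn3 and Rpn13 hold it, at 197 and 217 bp before the start. Over all genes with a conservative summit, the DRE occurred in 10.7% of promoters, near the 9.36% of all promoters. The Rpn3 site with its flanks, 28 bp in all, is exonic and lies past the start of the divergent neighbour, inside that gene. The Rpn13 site lies between the starts of Rpn13 and CtsL1, nearer to that of CtsL1. The first base of the match lay between 217 bp before and 26 bp after the start in these 12. The DRE reads the same on both strands and overlapped no match of the other 7 motifs in these genes. Below are 8 of the 12 sites with 10 bp on each side, in the direction of the gene and with the DRE in capitals, to show how the flanks differ.
Prosalpha6, chr2L:10221325-10221352, plus strand: ccgaatccctTATCGATAcccgatacac
Prosbeta2, chr3L:14999931-14999958, plus strand: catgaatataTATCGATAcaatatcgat
Prosbeta6, chr3L:16610445-16610472, minus strand: tatgtataccTATCGATAacgtttaagc
Rpt5, chr3R:23752820-23752847, plus strand: tcgctgtcacTATCGATAagcgccggcg
Rpn3, chr2L:19051583-19051610, plus strand: gttatcggagTATCGATAtcgaaaaggc
Rpn7, chr3R:22462034-22462061, minus strand: cggtataattTATCGATAattttggggt
Rpn9, chr3R:23733419-23733446, minus strand: cccggttaaaTATCGATAttctcgcgga
Rpn12, chr3L:16582802-16582829, plus strand: tgttaaaataTATCGATAttaaagcaca

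GGTCACACT, core promoter motif 1, occurred in 5 promoters (10.4%, against 6.05% of all promoters), near the background. All 5 belong to standard genes with no conservative summit, as most genes of the set have none. Over all genes with a conservative summit, the motif occurred in 8.1% of promoters. In all 5 it reads GGTCACACT in the direction of the gene. Its first base lay at 17 and 33 bp after the start in Prosalpha2 and Prosalpha4, 18 bp after it in Rpn7, 1 bp before it in Rpn1 and 216 bp before it in Prosbeta3. Rpn7, a lid gene, holds the DRE as well. The sites are shown with the motif in capitals and 10 bp on each side, fewer where the window ends.
Prosalpha2, chr3R:12431328-12431356, plus strand: ttcagcattcGGTCACACTgccgcccaat
Prosalpha4, chrX:16276293-16276319, plus strand: cccatgctgcGGTCACACTgcggcatt
Prosbeta3, chr3R:9006424-9006452, minus strand: gacgcggcctGGTCACACTgaaagctaat
Rpn1, chr3L:19915040-19915068, plus strand: ttcgccgcgcGGTCACACTgcaaaaagcg
Rpn7, chr3R:22462018-22462046, minus strand: ataattttggGGTCACACTggtagtacat

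CAACAGGTG, an E-box read by Scratch proteins, occurred in 0 of the 48, against 0.409% of all promoters, and its core CAGGTG in 2 (4.17%, against 9.32%), Prosalpha2 and Prosbeta4R2. With shares this low over all promoters, 48 promoters are too few to tell either count from the background. CAGCTG, another E-box, also occurred in 2 (4.17%, against 17.7%), Rpt3 and Rpt3R. TGACNNNGC, the core of the site of Cnc, the fly homolog of the factors that raise proteasome genes in mammals, occurred in 6 (12.5%, against 8.63%), and its matches overlapped those of GGTCACACT in Prosbeta3 and Rpn1. GAGAG, the GAGA factor site, was found in 9 (18.8%, against 29.7%), and TATAAA in 18 (37.5%, against 45.8%). Within 101 bp around the 4 conservative summits, the only match to any of the 8 motifs was GAGAG at Rpn13. GC content was 26.7% in these windows at Rpn3 and Rpn13, 46.5% at Rpn8 and 49.5% at Prosbeta5, against 38.3% ± 11.6 (SD, n = 6776) over all conservative summits. The promoters of the 48 genes had 34.9% ± 6.83 GC (SD, n = 48), against 39.1% ± 7.74 (SD, n = 13945) over all genes.

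**Figure D4:**
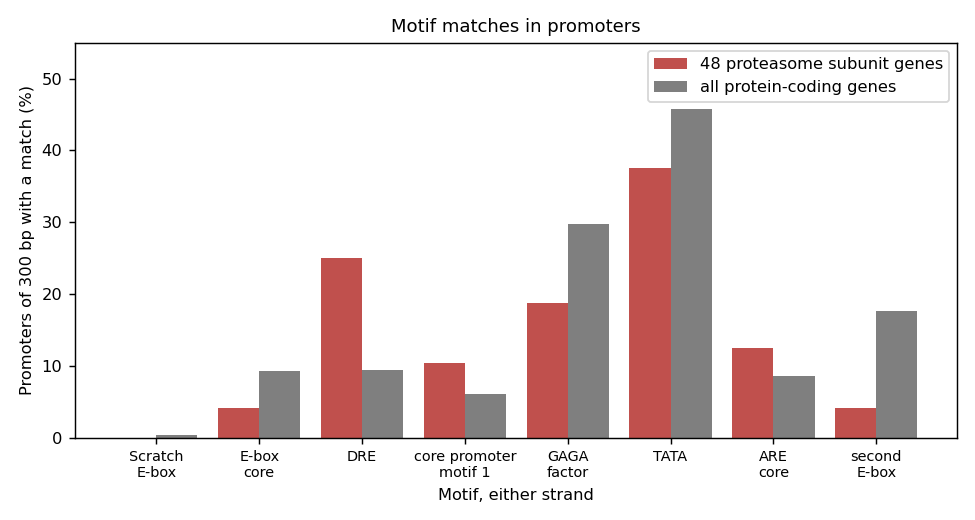
Percent of promoters of 300 bp with a match on either strand (y axis) for each of 8 motifs (x axis), in the 48 proteasome subunit genes (red) and in all protein-coding genes (grey). The DRE stands at 25.0% against 9.36%, and the Scratch E-box at 0 against 0.409%.

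Lists of related genes were counted in the same way. Of 28 helper genes found in the annotation, 14 had a conservative summit within 1000 bp (against 23.1% of all genes): cnc, maf-S, Keap1, Pomp, Uch-L5, Ubi-p5E, Ubqn, Npl4, Usp5, Ubr1, Ube3a, Hsp83, Roc1a and ntc. The thresholded list of replicate 1 alone held 7 of the 28 (against 15.8% of all genes), and that of replicate 2 alone also held 7 (against 19.3%), so the count of 14 rests on the list built on both replicates. Hsp83, the Hsp90 chaperone gene, had a signal of 284, with 116 in replicate 1 and 157 in replicate 2, at a summit within 1000 bp of the start of CG14965 as well. Ubr1, a ubiquitin ligase gene, had 219 with 99.6 and 104 in the replicates. Keap1, which encodes the inhibitor of Cnc, had 214 with 102 and 97.0, at a summit 890 bp upstream that also lies within 1000 bp of the start of kuk. Pomp, the gene of a core assembly chaperone, had 141 with 94.1 and 45.5. These 4 are the highest of the 14. The median over the 14 was 68.2, below the signals of Rpn3, Rpn13 and Prosbeta5 and below the median of 98.1 over all genes with a conservative summit. Of the 28, 13 have 1 start position, against 36 of the 48 subunit genes, and a summit is more often found at genes with more starts, as given above. In the COP9 signalosome, a complex of lid-like architecture, 1 of 9 genes had a summit (11.1%), alien at 124, with 59.8 and 66.9 in the replicates and a summit also near the start of CG18661. With only 9 genes, this count is near the share of all genes, 23.1%. Genes for cytoplasmic ribosomal proteins stood at 57 of 92 (62.0%), with 36 in the thresholded list of replicate 1 alone and 54 in that of replicate 2 alone. Genes for mitochondrial ribosomal proteins stood at 20 of 73 (27.4%, against 23.1% of all genes), with 14 and 18 in the replicates' lists. The highest of the first were RpS19b at 468, RpL30 at 216, RpS28b at 205 and RpL34b at 201, and of the second mRpS23 at 1053, mRpS10 at 976, mRpL41 at 894 and mRpL23 at 571. Of these 8 summits, that of RpL30 is the one with no other protein-coding start within 1000 bp. The RpS19b peak, at 23934430 on 3R, lay 900 bp from RpS19b and 518 bp from CG5854. It is also the nearest to the base ATPase gene Rpt2, 2872 bp upstream. RpL40 and RpS27A, which encode ubiquitin fused to a ribosomal protein, are in the helper and the cytoplasmic ribosomal lists, and neither had a summit. Genes with 1 start position were 48 of the 92 cytoplasmic and 67 of the 73 mitochondrial ribosomal genes. They were 8 of the 9 COP9 genes, against 73.5% of all genes. The lists thus also differ in their number of start positions, and the differences in summits between lists were not tested.

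**Figure D5:**
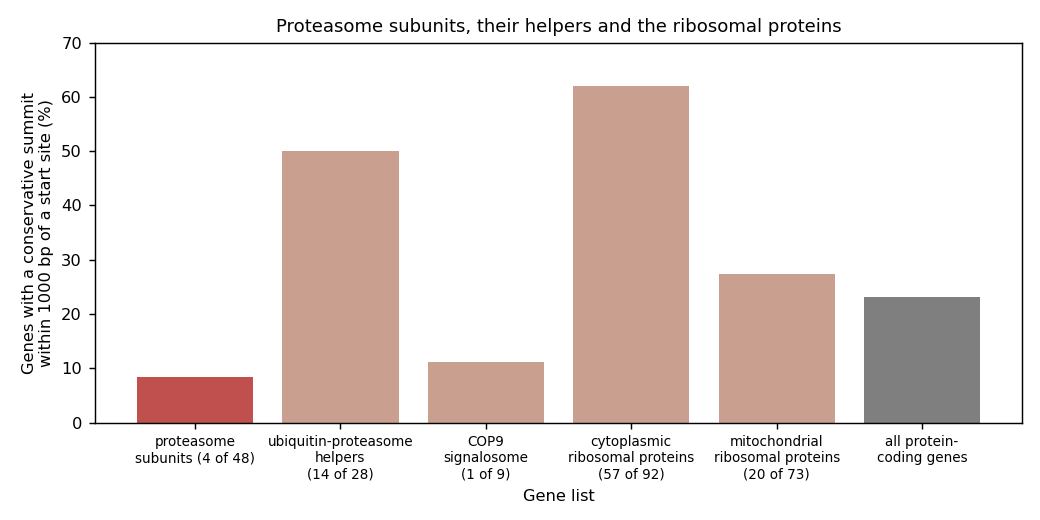
Percent of genes with a conservative summit within 1000 bp of a start site (y axis) for the proteasome subunits (red), 4 related lists (light brown) and all protein-coding genes (grey), with counts under the bars (x axis). The subunits, with the 16 paralogs included, are lowest at 8.33%, next to the COP9 signalosome at 11.1%. The cytoplasmic ribosomal proteins are highest at 62.0%. Of the paralogs, 0 had a summit. The standard genes alone, not drawn, stand at 4 of 32, above the share of the COP9 genes and below that of all genes. The COP9 bar is 1 of 9 genes, a count near the share of all genes.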

How the data were processed

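The data are 8 peak lists on dm6. Per the deposited text files, reads were aligned to dm6 and peaks were called by the authors with a control alignment as background, then ranked by IDR for each replicate and for both jointly. The programs used for alignment and peak calling are not given in the sources. Each peak has a signal, the authors' own value whose scaling is not stated, and a score, deposited as an integer that follows the IDR. Signal was compared within a list. The read depth is unknown, and the control and coverage tracks were not analysed here. Thresholded peaks were checked against the ranked lists, where their IDR was 0.01 or less.

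Summits (column 2 plus column 10, counted from 1) were placed on the Ensembl 115 annotation with Python 3.11.15. Sequences came from the RefSeq copy of Release 6. All peaks on the 6 arms end within its chromosomes, 232 peaks elsewhere were left out, and all 48 genes have the same coordinates in both annotations. The steps were tested on simulated peaks at 200 genes, of which 200 were recovered. Members and lists were chosen with earlier results of these data known, so counts are set beside those of all genes and no test was made. Of 30 helper symbols, 28 matched a gene. Genes named are those in a conservative or replicate list, the 5 highest per replicate, those with the nearest summit beyond 1000 and up to 2000 bp, and up to 4 per list. Rpt2, the other bound helpers, RpL40, RpS27A and genes named for their motifs were added after their values were seen. Alternatives covered lists, limits, start sites and replicates.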

Additional observations from a re-analysis of the deposited data

How the results depend on the processing

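The count of 4 genes in the conservative list was 3 in the series-level list, within 500 or 250 bp, with only the outermost start sites, among peaks above the median signal and with a score of 1000, and 5 by overlap of the peak with the window. It was 3 with a signal of at least 20, an alternative chosen after seeing the data. It was 8 within 2000 bp (against 28.7% of all genes) and 2 when each summit counted only for its nearest start site (against 18.1%), which removes Prosbeta5 and Rpn8. Using the list of the other replicate alone, the count without replicate 1 or without replicate 2 ran from 2 to 3; without replicate 2 it was 2. Within 2000 bp the thresholded list of replicate 1 held 5 genes (against 20.4%) and that of replicate 2 held 8 (against 24.5%). In the ranked list of replicate 1, 16 genes had a summit within 500 bp (against 51.2%), where 25 had one within 1000 bp. Among the related lists, helpers fell to 7 of 28 without replicate 1 and to 7 without replicate 2, where the conservative list held 14, and cytoplasmic ribosomal genes to 36 of 92 without replicate 2, where it held 57. The causes of these moves were not tested, except that a wider limit takes in more summits. Where the alternative has a share of all genes, the share of the 48 proteasome genes was the lower. With the standard particle only, the count stayed at 4, now of 32 genes, and all genes stood at 23.1%. In the ranked list of replicate 1 the 32 standard genes were above all genes (68.8% against 62.7%). No paired analysis was possible because there is a single group with no comparison between groups. The unknown read depth limits what an absent peak can show.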
